A study of Mus musculus with 6 samples.

Results

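The genes that carry glucose through glycolysis to lactate, together with genes known as targets or regulators of the hypoxia response, were followed on 6 arrays of mouse J1 embryonic stem cells and the embryoid bodies made from them. The members were chosen by name: 40 gene symbols, 25 of glucose uptake, glycolysis and pyruvate handling and 15 of the hypoxia response, and every probe annotated to them was used. Of these, 34 genes had a probe, 22 glycolytic and 12 of the hypoxia response, with 47 probes among the 19420 probes that named 1 gene each, and 13165 genes were named in all. Gpi1, Eno1, Slc16a3, Ankrd37, Car9 and Ero1l had no probe named for them and are not described. J1 is an established embryonic stem cell line. Noggin is a secreted protein that binds bone morphogenetic proteins and keeps them from their receptors. The study's design text describes Noggin at 150 ng/ml for 3 days on the stem cells, then suspension culture without LIF, the cytokine that holds mouse stem cells undifferentiated, to form embryoid bodies, with Noggin withdrawn on the second day after that. RNA was compared between a Noggin arm and a mock arm at day 0 (stem cells), day 2 and day 4 (embryoid bodies), with 1 array for each arm and day. The labels do not settle whether the day 0 Noggin array was taken before or after the 3 days of Noggin, and they carry the same Noggin and LIF treatment entry on all 6 arrays, the mock arrays included.

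Glycolysis turns glucose into pyruvate through a fixed chain of enzymes, and lactate dehydrogenase can then turn pyruvate into lactate and restore the NAD+ that the chain needs. Mouse embryonic stem cells are known for active glycolysis even where oxygen is plentiful. When oxygen is scarce, prolyl hydroxylases no longer mark hypoxia-inducible factor (HIF) alpha subunits for destruction, and HIF then binds the core letters ACGTG or GCGTG near its target genes, which include most glycolytic genes as well as Vegfa, Ndrg1, Ddit4 and Egln3. Many of these genes also answer to signals other than oxygen. The labels give no oxygen level, so the word hypoxia names the gene list here and not a condition of the cultures.

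Values are the log2 expression values that the authors deposited for each array. Their median was 7.37 on every array, so a probe near 7.37 was at the middle of the array and one near 14 was among the brightest. Changes between days were tested with limma on 15168 probes that exceeded the median of 2 or more arrays, in a model with day and arm, and a probe was called at a Benjamini-Hochberg adjusted p under 0.05. The Noggin and the mock array of a day therefore served as that day's pair of measurements, and nothing in the labels says whether they came from separate cultures, so the p-values cover only the spread between these arrays. Of the 47 member probes, 38 were tested, for 31 genes. The other 9 lay between 6.64 and 7.31 on all 6 arrays, below the median, and for Hif1a, Bnip3 and Aldoc no other probe was there. The levels of these 3 genes could not be read, which matters most for Hif1a, the oxygen-regulated subunit itself. A probe that passed the median through a single day had to differ between days, so the counts below describe the tested probes and not all members.

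Levels of markers place these arrays. The summed signal of 5 stem cell markers, all above the median on every array, was 32300 on the Noggin and 31176 on the mock array at day 0, then 10339 and 12175 at day 2, then 4674 and 13109 at day 4. The summed signal of 4 fibroblast markers with a probe, Dcn, Thy1, Col1a1 and Postn, was 2947 and 2274 at day 0, then 842 and 795 at day 2, then 573 and 644 at day 4. Dcn carried most of it at day 0, and Postn was below the median on all 6 arrays. Above the median were 3 markers on the Noggin and 2 on the mock array at day 0, 2 on each at day 2 and 1 on each at day 4. The signals keep their background, so the later fibroblast sums lay close to it. The sum of 4 endoderm markers lay between 743 and 852 at day 0 and day 2 and was 3041 and 2051 at day 4, and that of 2 neuroectoderm markers lay between 284 and 449. No more than 1 of the 2 neuroectoderm markers was above the median on any array, so their sum lay near the background. From day 0 to day 4 the 2 went opposite ways, with log2 changes of 1.245 and -0.44, which the sum does not show. The one that rose was above the median on the day 4 arrays alone, so its rise is a description. In bulk RNA, fewer cells of a type and less RNA per cell cannot be told apart, and the part that fibroblast RNA or the loss of stem cells had in any change below was not tested.

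Between day 0 and day 2, 13 of 38 tested member probes were called, beside 27.6% of all tested probes. Of them 3 were higher at day 2, beside 14.3% of all tested probes, and 10 were lower, beside 13.3%. Between day 2 and day 4, 15 of 38 were called, beside 25.6%, with 11 higher, beside 12.5%, and 4 lower, beside 13.1%. Between day 0 and day 4, 16 of 38 were called, beside 38.6%, with 8 higher, beside 19.5%, and 8 lower, beside 19.1%. These 3 comparisons share arrays and are read side by side. The calls rest on all the arrays: without any 1 of the 4 arrays of day 0 and day 2, limma called 0 of 38 member probes and 0 of all 15168 between day 0 and day 2, although 12 or 13 of the 38 still had an unadjusted p under 0.05. Between day 2 and day 4 all calls were lost without any 1 of the same 4 arrays, and between day 0 and day 4 without either day 0 array. They were lost among all 15168 tested probes and not only among the members. In the other fits with 1 array left out, the share of member probes called moved in the same direction as the share of all tested probes. The 13, 15 and 16 called probes kept their direction in each of these fits.

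**Figure D1:**
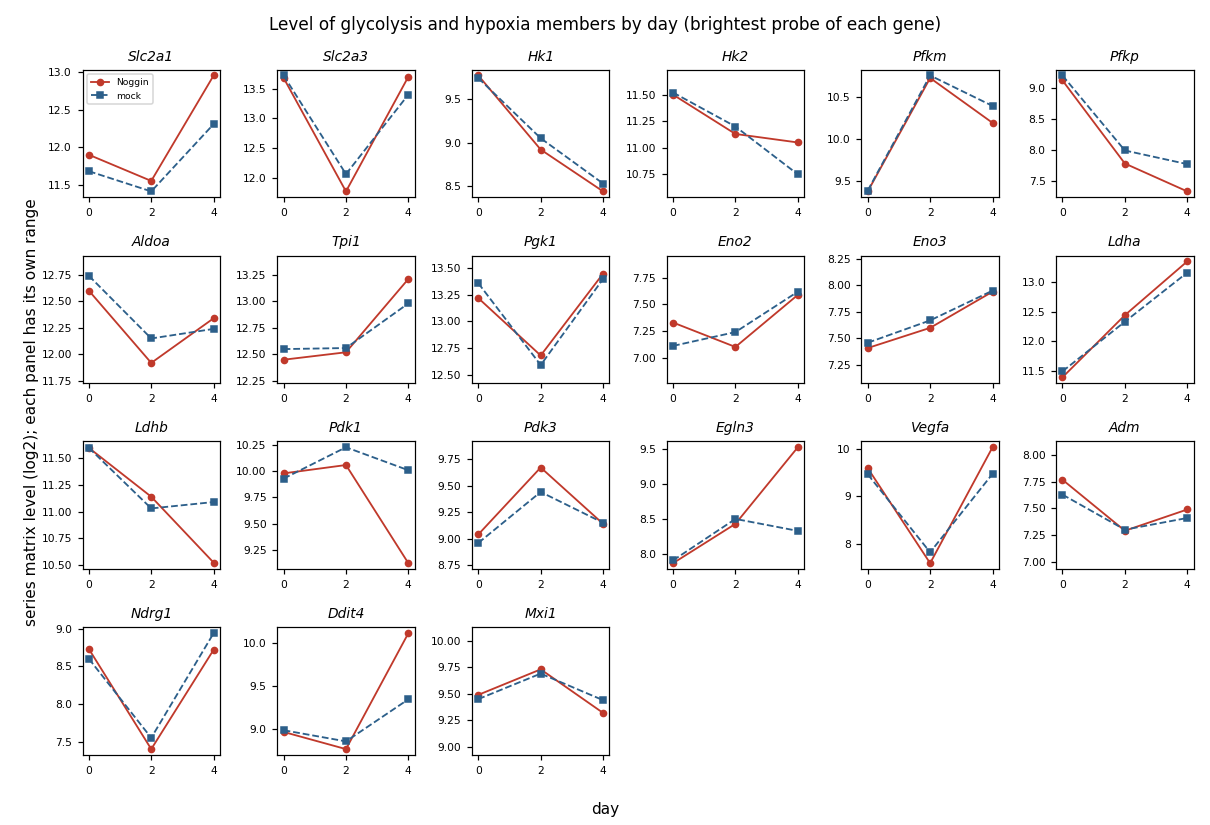
Log2 level of 21 member genes on each of the 6 arrays, with 1 panel per gene, each on its own range, Noggin and mock arrays as separate points and day 0, 2 or 4 on the horizontal axis. Vegfa, Ndrg1, Slc2a3 and Pgk1 have their lowest points on both day 2 arrays, Ldha climbs at each day, and Egln3 and Pdk1 have their arms apart at day 4.

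Glucose enters the cell through the transporters Slc2a1 (GLUT1) and Slc2a3 (GLUT3, the high-affinity form). Slc2a3 read 13.68 on the Noggin and 13.72 on the mock array at day 0, then 11.78 and 12.07 at day 2, then 13.70 and 13.40 at day 4. Both day 2 arrays lay below all 4 others, with a gap far wider than the one between the arms. The gene fell 3.42-fold from day 0 to day 2 (log2 change -1.775, SE 0.15, limma adjusted p 0.00227) and rose 3.08-fold from day 2 to day 4 (limma adjusted p 0.00426), and day 4 against day 0 gave -0.15 (limma adjusted p 0.468). Slc2a1 read 11.90 and 11.68 at day 0, then 11.55 and 11.41 at day 2, then 12.96 and 12.31 at day 4, again Noggin before mock. The 2 day 4 arrays were the highest, with the Noggin array above the mock array. Slc2a1 rose 2.23-fold from day 2 to day 4 (limma adjusted p 0.00733) and was 1.80-fold higher at day 4 than at day 0 (limma adjusted p 0.00808), while its change to day 2, -0.31, did not pass (limma adjusted p 0.162).

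The hexokinases, which trap glucose as glucose 6-phosphate, fell. Hk1, the widespread form, read 9.77 and 9.74 at day 0, then 8.92 and 9.05 at day 2, then 8.44 and 8.53 at day 4. Each day's pair lay wholly below the pair before it. The fall was 1.71-fold to day 2 (limma adjusted p 0.00408), 1.41-fold from day 2 to day 4 (limma adjusted p 0.0153) and 2.41-fold over all 4 days (log2 change -1.27, SE 0.0859, limma adjusted p 0.00105). Hk2, the form held by insulin-responsive and many dividing cells, was lower at day 4 than at day 0 by 1.53-fold (limma adjusted p 0.0122), with 11.50 and 11.52 at day 0, then 11.13 and 11.20 at day 2, then 11.05 and 10.75 at day 4. The fibroblast marker sum fell over the same days as Hk1.

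Phosphofructokinase, the main regulated step of the chain, has liver (Pfkl), muscle (Pfkm) and platelet (Pfkp) isozymes, and the readings for them went separate ways. The brightest Pfkm probe read 9.38 and 9.39 at day 0, then 10.72 and 10.75 at day 2, then 10.19 and 10.39 at day 4. It rose 2.55-fold to day 2 (log2 change 1.35, SE 0.0899, limma adjusted p 0.00164), then fell 1.36-fold (limma adjusted p 0.0222), and remained 1.87-fold above day 0 at day 4 (limma adjusted p 0.00219). No 2 days overlapped. The brightest Pfkp probe read 9.12 and 9.20 at day 0, then 7.78 and 7.99 at day 2, then 7.33 and 7.77 at day 4, and so reached the neighbourhood of the median. Its fall was 2.42-fold to day 2 (limma adjusted p 0.00243) and 3.05-fold to day 4 (log2 change -1.61, SE 0.11, limma adjusted p 0.00107). The probes for Pfkp did not all move alike. One of the other 2 tested probes, above the median on 5 arrays, changed by -0.105 to day 2 and 0.105 to day 4, neither of which was called (limma adjusted p 0.611 and 0.579). The dimmest read 7.93 and 8.06 at day 0 and 7.26 or less on the other arrays. It passed the filter through the day 0 arrays alone, so its lower values after day 0 are a description and no second measurement of the fall. Pfkl read between 11.43 and 12.10 on the 6 arrays, and none of its day comparisons passed (limma adjusted p 0.265, 0.218 and 0.892).

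Among the enzymes that follow, aldolase A (Aldoa), which splits the 6-carbon sugar, fell 1.55-fold to day 2 (limma adjusted p 0.0117), from 12.60 and 12.74 to 11.92 and 12.15. At day 4 it read 12.34 and 12.24, 1.30-fold under day 0 (limma adjusted p 0.0387), a call lost when the background was corrected (limma adjusted p 0.056) or arrays were scaled on their medians (limma adjusted p 0.0885). Pgk1, phosphoglycerate kinase and the first step to yield ATP, read 13.22 and 13.36 at day 0, then 12.68 and 12.59 at day 2, then 13.45 and 13.40 at day 4. As for Slc2a3, its day 2 arrays lay below the other 4. It fell 1.57-fold (limma adjusted p 0.0075) and then rose 1.73-fold (log2 change 0.79, SE 0.0941, limma adjusted p 0.00716). Tpi1, which interconverts the triose phosphates, read 12.45 and 12.55 at day 0, then 12.52 and 12.56 at day 2, then 13.21 and 12.98 at day 4. By the brightest probe the day 4 arrays alone stood apart, 1.47-fold above day 2 (limma adjusted p 0.0204) and 1.51-fold above day 0 (limma adjusted p 0.0107). Another Tpi1 probe, above the median on all 6 arrays, did not share this, with -0.145 from day 2 to day 4 (limma adjusted p 0.241) and -0.18 over all 4 days (limma adjusted p 0.135).

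Gapdh, often used as a reference gene, changed little. The dimmer of its 2 probes read 14.45 and 14.53 at day 0, then 14.29 and 14.53 at day 2, then 14.04 and 14.16 at day 4, 1.31-fold below day 0 (limma adjusted p 0.0191), and the brighter probe fell by 0.205 over the same days without passing (limma adjusted p 0.108). Under median scaling the former change shrank to -0.08 (limma adjusted p 0.583), so the size of the Gapdh change depended on the scaling, and its call was lost. Pgam1, phosphoglycerate mutase, stayed between 10.52 and 10.68. The enolases, which make phosphoenolpyruvate, were read through the neuronal form Eno2 and the muscle form Eno3, both close to the median. Eno3 was at 7.41 and 7.46 at day 0, then 7.60 and 7.67 at day 2, then 7.94 and 7.95 at day 4, 1.42-fold above day 0 (limma adjusted p 0.00664). Eno2 read 7.33 and 7.11 at day 0, 7.10 and 7.24 at day 2, all below the array median, and 7.59 and 7.62 at day 4. It passed the filter through the day 4 arrays alone, so its higher level there, 1.31-fold over day 0, is a description, although it stands among the called probes counted above. Pkm, pyruvate kinase, read from 12.19 to 12.58, and its rise of 0.31 to day 4 did not pass (limma adjusted p 0.0512).

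At the branch where pyruvate becomes lactate or enters the mitochondria, Ldha gave the steepest climb. This subunit of lactate dehydrogenase is the one known for favouring lactate. It read 11.39 and 11.49 at day 0, then 12.44 and 12.33 at day 2, then 13.35 and 13.16 at day 4, with no overlap between any 2 days. It rose 1.93-fold to day 2 (limma adjusted p 0.00371), a further 1.83-fold to day 4 (limma adjusted p 0.00698) and 3.52-fold in all (log2 change 1.815, SE 0.10, limma adjusted p 0.000817). Ldhb, the subunit of oxidative tissues, went the other way. It read 11.60 on both day 0 arrays, 11.14 and 11.03 at day 2, and 10.52 and 11.09 at day 4, 1.74-fold below day 0 (limma adjusted p 0.0187). A dimmer Ldhb probe fell by 0.605 over the same days (limma adjusted p 0.0102), and the call on the brighter probe was lost under median scaling (limma adjusted p 0.0714). The pyruvate dehydrogenase kinases Pdk1 and Pdk3 switch off the enzyme that feeds pyruvate to the mitochondria. Pdk3 read 9.04 and 8.96 at day 0, then 9.67 and 9.44 at day 2, then 9.14 and 9.15 at day 4, so that it rose 1.47-fold (limma adjusted p 0.0119) and fell 1.33-fold (limma adjusted p 0.0305). Pdk1 passed in no day comparison, and its arms are described further on. Pfkfb3 and Pfkfb4, which set the level of the activator of phosphofructokinase, read between 7.55 and 7.98 and did not pass.

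**Figure D2:**
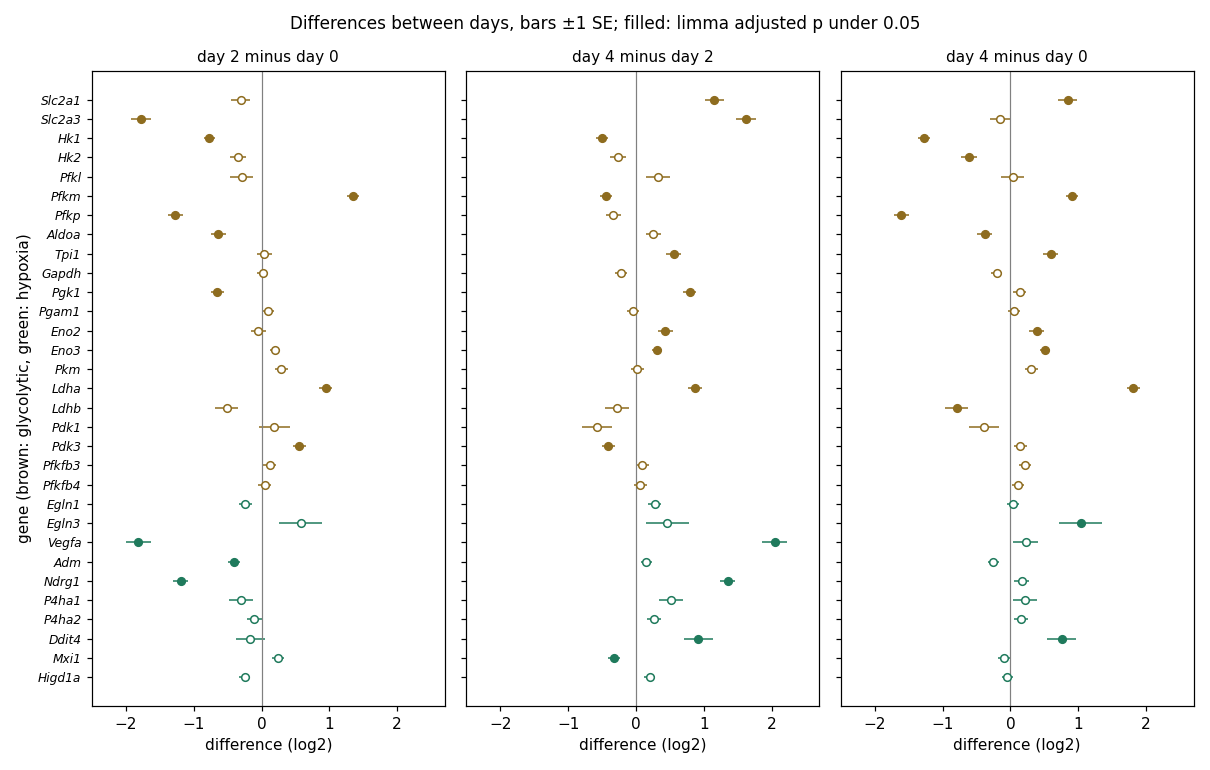
Log2 difference of each tested member gene, brightest probe, for day 2 against day 0, day 4 against day 2 and day 4 against day 0, 1 panel each, glycolytic genes in brown and hypoxia-response genes in green, with bars of 1 standard error from limma and filled points where the adjusted p was under 0.05. Vegfa, Slc2a3 and Ndrg1 lie far below 0 to day 2 and far above 0 from day 2 to day 4, and Ldha lies above 0 in all 3 panels.

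Of the hypoxia-response members, Vegfa changed most. It encodes the growth factor that draws in blood vessels. It read 9.59 and 9.46 at day 0, then 7.59 and 7.82 at day 2, then 10.03 and 9.47 at day 4. The day 2 arrays lay far below the others, and day 4 overlapped day 0. The fall to day 2 was 3.53-fold (log2 change -1.82, SE 0.19, limma adjusted p 0.00336), the rise to day 4 was 4.13-fold (log2 change 2.045, limma adjusted p 0.00426), and day 4 against day 0 gave 0.225 (limma adjusted p 0.386).

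Ndrg1, a cytoplasmic protein known to be induced by low oxygen and in differentiating cells, had a like course. It read 8.73 and 8.60 at day 0, then 7.40 and 7.55 at day 2, then 8.72 and 8.94 at day 4. It fell 2.28-fold (limma adjusted p 0.00286) and rose 2.56-fold (log2 change 1.355, SE 0.11, limma adjusted p 0.00366), and day 4 against day 0 gave 0.165 (limma adjusted p 0.292). A second Ndrg1 probe, near the median, moved by -0.585 (limma adjusted p 0.0397) and 0.725 (limma adjusted p 0.0239), or by -0.96 and 1.16 with background correction. Adm, the vasodilator peptide adrenomedullin, read 7.77 and 7.63 at day 0 and 7.29 and 7.30 at day 2, 1.32-fold lower (limma adjusted p 0.0217). Its change was -0.405, or -0.62 with background correction, and its values of 7.49 and 7.41 at day 4 did not differ from day 2 by the test (limma adjusted p 0.233). Adm and the second Ndrg1 probe were below the median on both day 2 arrays and passed the filter through day 0 and day 4. The filter thus favoured a lower day 2 for both.

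The fibroblast marker sum also fell between day 0 and day 2, when Vegfa, Ndrg1, Slc2a3 and Pgk1 fell. At day 4, when none of these 4 genes differed from day 0 by the test, that sum was 573 and 644, beside 842 and 795 at day 2. Of the 4 markers, 2 were above the median on each day 2 array and 1 on each day 4 array. The sums of both days thus lay near the background, and the size of a change between the sums cannot be read. By gene, the 2 tested fibroblast markers changed by -1.195 and -0.27 from day 2 to day 4. Of these, 1 was called lower, beside 13.1% of all tested probes. The part of fibroblast RNA in the fall or in the later rise was not tested.

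Egln3 is one of the oxygen-sensing prolyl hydroxylases and is itself a HIF target. It read 7.87 and 7.91 at day 0, then 8.43 and 8.50 at day 2, then 9.52 and 8.33 at day 4. The wide gap between the day 4 arms gave a standard error of 0.32, and of its day comparisons day 4 against day 0 alone passed, 2.05-fold higher (log2 change 1.035, limma adjusted p 0.0493). That call was lost when all probes were tested (limma adjusted p 0.0551). Egln1, the prolyl hydroxylase that sets HIF levels in most cells, read between 7.25 and 7.62 and did not pass. Ddit4, an inhibitor of mTOR signalling induced by many stresses, read 8.97 and 8.99 at day 0, then 8.77 and 8.86 at day 2, then 10.12 and 9.35 at day 4. It rose 1.89-fold from day 2 to day 4 (log2 change 0.92, SE 0.22, limma adjusted p 0.0336). Mxi1, an antagonist of Myc, fell 1.26-fold in that interval (limma adjusted p 0.0449), from 9.73 and 9.69 to 9.32 and 9.44, after 9.49 and 9.45 at day 0, a call that did not hold with background correction (limma adjusted p 0.0635). P4ha1 and P4ha2, the collagen prolyl hydroxylases, and Higd1a, a mitochondrial protein, read between 7.20 and 8.01 and did not pass in any day comparison.

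The glycolytic and the hypoxia-response genes were set beside each other by the brightest tested probe of each gene. From day 0 to day 2, 3 glycolytic genes rose (Pfkm, Ldha and Pdk3), 5 fell (Slc2a3, Hk1, Pfkp, Aldoa and Pgk1) and 13 of 21 did not pass, with a median log2 difference of 0.015. In the hypoxia response 0 rose, 3 fell (Vegfa, Adm and Ndrg1) and 7 of 10 did not pass, with a median of -0.245 and 8 of 10 genes below 0. Of all tested probes, 14.3% rose and 13.3% fell, with a median of 0.01. From day 2 to day 4, 7 glycolytic genes rose (Slc2a1, Slc2a3, Tpi1, Pgk1, Eno2, Eno3 and Ldha), 3 fell (Hk1, Pfkm and Pdk3) and 11 did not pass, with a median of 0.065. Without Eno2, which passed the filter through the day 4 arrays alone, 6 glycolytic genes rose. In the hypoxia response 3 rose (Vegfa, Ndrg1 and Ddit4), 1 fell (Mxi1) and 6 did not pass, with a median of 0.3675. Of all tested probes, 12.5% rose and 13.1% fell, with a median of -0.025. The hypoxia median includes P4ha2 (0.265), tested through the day 4 arrays alone, as the glycolytic median includes Eno2. For these 2 genes the filter favoured a rise to day 4. Adm, Egln1 and P4ha1 were below the median on both day 2 arrays and passed the filter through day 0 and day 4. For them the filter favoured a fall to day 2 and a rise after it, and both hypoxia medians include them. The medians of day 4 against day 0 were 0.11 for the glycolytic and 0.1625 for the hypoxia-response genes, against -0.01. The difference between the lists was not tested. Under a filter that kept probes above the 75th percentile, the hypoxia median from day 2 to day 4 was 0.92 and the glycolytic median to day 2 was -0.29.

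**Figure D3:**
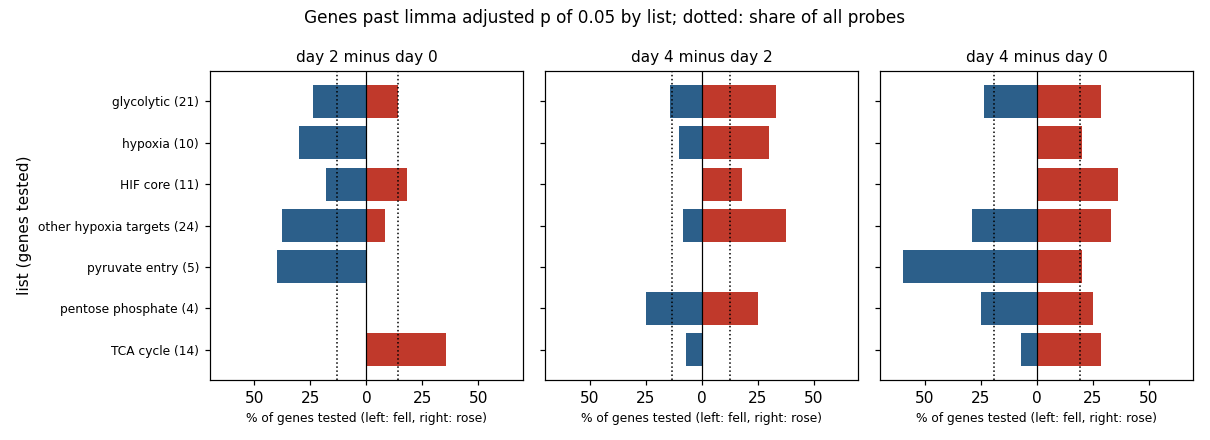
Percent of tested genes called higher (right of 0) or lower (left of 0) in the 3 day comparisons, for the glycolytic members, the hypoxia-response members and the related lists, with dotted lines at the percent of all tested probes. The hypoxia-response members have no bar to the right of 0 for day 2 against day 0.

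Windows around the transcription starts were read for the HIF core letters. RefSeq windows of 300 bases on GRCm38.p6, 250 bases before the start and 50 after it, matched 32 of the 34 members with a probe, 46 windows in all. ACGTG on either strand was in 58.7% of the 46, against 19.6% of all 32851 windows, GCGTG on either strand was in 56.5% against 32.4%, and one or the other was in 80.4% against 43.8%. These windows were also richer in CG dinucleotides, with a median of 20 per window against 7, and both motifs hold a CG. The palindrome CACGTG counts on both strands. A match is a description of letters and not a bound site. The 7 windows below are shown because the results turn on their genes: Vegfa and Pgk1 with a dip at day 2, Slc2a1 and Ddit4 with a late rise, Ldha with a rise throughout, Egln3 with its arms apart, and Hk1 with a fall. RefSeq gives Vegfa, Ldha and Hk1 a pair of windows each, and for these the window with more motifs is printed. The other Vegfa and Hk1 windows hold 0 of either motif, and the other Ldha window holds 0 ACGTG and 2 GCGTG. The printed Vegfa and Hk1 windows lie downstream of the other windows of these genes, at chr17:46032328-46032627 and chr10:62379859-62380158. Which start the cells used was not tested. The choice by motif count favours matches, so the motifs printed for Vegfa and Hk1 may lie away from the start in use. Whether the printed bases also lie in coding sequence was not looked at. The 7 printed windows lie at chr17:46025114-46025413 on the minus strand (Vegfa), chrX:106186850-106187149 on the plus strand (Pgk1), chr4:119108495-119108794 on the plus strand (Slc2a1), chr10:59951721-59952020 on the minus strand (Ddit4), chr7:46845554-46845853 on the plus strand (Ldha), chr12:54203825-54204124 on the minus strand (Egln3) and chr10:62340372-62340671 on the minus strand (Hk1). Each is written 5′ to 3′ along its gene, and capitals mark either motif, read on either strand.
Vegfa: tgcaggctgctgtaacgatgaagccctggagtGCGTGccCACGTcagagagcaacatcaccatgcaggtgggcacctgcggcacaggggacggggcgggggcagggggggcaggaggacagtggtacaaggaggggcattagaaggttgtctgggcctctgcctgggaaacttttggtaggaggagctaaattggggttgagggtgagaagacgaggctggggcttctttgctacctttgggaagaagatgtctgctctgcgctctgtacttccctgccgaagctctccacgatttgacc
Pgk1: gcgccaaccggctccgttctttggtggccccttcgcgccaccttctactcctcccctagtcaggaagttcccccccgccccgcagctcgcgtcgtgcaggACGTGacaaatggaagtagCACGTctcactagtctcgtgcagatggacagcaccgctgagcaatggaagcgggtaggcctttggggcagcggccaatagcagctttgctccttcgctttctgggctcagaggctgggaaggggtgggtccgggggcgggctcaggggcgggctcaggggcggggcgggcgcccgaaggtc
Slc2a1: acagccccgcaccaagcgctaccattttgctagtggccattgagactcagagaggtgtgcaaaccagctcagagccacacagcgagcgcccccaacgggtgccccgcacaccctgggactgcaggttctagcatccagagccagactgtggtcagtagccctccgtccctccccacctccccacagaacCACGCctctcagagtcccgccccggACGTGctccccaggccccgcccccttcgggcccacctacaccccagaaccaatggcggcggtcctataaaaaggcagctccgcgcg
Ddit4: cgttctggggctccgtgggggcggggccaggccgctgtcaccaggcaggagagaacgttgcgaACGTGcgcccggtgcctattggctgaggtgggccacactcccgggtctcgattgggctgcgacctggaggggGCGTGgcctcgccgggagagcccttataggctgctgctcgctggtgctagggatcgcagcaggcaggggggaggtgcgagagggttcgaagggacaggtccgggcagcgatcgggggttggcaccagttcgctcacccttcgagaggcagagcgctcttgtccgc
Ldha: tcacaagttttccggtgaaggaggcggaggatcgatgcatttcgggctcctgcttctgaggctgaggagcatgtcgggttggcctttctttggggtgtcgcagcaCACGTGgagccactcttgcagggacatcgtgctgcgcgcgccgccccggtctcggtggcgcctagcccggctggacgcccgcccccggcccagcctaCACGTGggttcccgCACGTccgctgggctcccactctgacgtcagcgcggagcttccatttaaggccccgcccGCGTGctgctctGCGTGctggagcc
Egln3: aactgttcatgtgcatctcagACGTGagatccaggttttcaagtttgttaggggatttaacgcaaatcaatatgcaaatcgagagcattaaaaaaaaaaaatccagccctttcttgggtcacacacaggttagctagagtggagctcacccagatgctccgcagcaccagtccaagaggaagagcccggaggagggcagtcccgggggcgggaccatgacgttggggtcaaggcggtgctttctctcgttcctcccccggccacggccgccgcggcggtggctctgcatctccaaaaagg
Hk1: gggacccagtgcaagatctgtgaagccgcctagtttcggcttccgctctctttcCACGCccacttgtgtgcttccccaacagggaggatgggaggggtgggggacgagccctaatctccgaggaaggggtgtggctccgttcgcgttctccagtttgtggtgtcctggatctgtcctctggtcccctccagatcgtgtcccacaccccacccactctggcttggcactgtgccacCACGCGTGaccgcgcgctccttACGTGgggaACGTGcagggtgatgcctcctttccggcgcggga
The Ldha window printed here held 5 ACGTG and 2 GCGTG, and the Hk1 window printed here held 2 ACGTG and 3 GCGTG, counted over both strands. Ldha rose and Hk1 fell at each day.

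Noggin and mock were compared within each day with 1 array an arm, so these differences have no test, and a gene was counted when it differed at least 1.5-fold and both arrays were above the median. At day 0, 0 of 35 member probes were past 1.5-fold, beside 0.0312% of all probes (0.0156% in each direction), and at day 2, 0 of 30, beside 0.43%. At day 4, 4 of 36 were, beside 5.65%: 3 with Noggin higher, Slc2a1, Egln3 and Ddit4, beside 2.74%, and 1 with Noggin lower, Pdk1, beside 2.92%. Averaged over the 3 days, the limma model called 0 of 38 member probes and 0 of all 15168 (0%), with 3 and 406 of them at an unadjusted p under 0.05 and a smallest limma adjusted p of 0.969. The stem cell marker sum was 4674 with Noggin and 13109 with mock at day 4, and the sum of 3 mesoderm markers, Mesp1, Eomes and Tbx6, was 7209 and 1732. Their part in the day 4 differences of the members was not tested.

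Egln3 had the widest day 4 gap among the members. It differed by -0.04 at day 0 and -0.07 at day 2 and by 1.19 at day 4, 2.28-fold higher with Noggin. Between day 2 and day 4 it rose by 1.09 in the Noggin arm and moved by -0.17 in the mock arm. Ddit4 differed by -0.02 and -0.09 at the earlier days and by 0.77 at day 4, 1.71-fold higher with Noggin, with a gain of 1.35 against 0.49 over the last 2 days. Slc2a1 was higher with Noggin at each day, by 0.22, 0.14 and 0.65, the last of these 1.57-fold.

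Pdk1, which holds back pyruvate dehydrogenase, was lower with Noggin at day 4. It read 9.98 and 9.93 at day 0, then 10.06 and 10.23 at day 2, then 9.12 and 10.01 at day 4, Noggin before mock. The day 4 Noggin array stood alone below the other 5. At day 4 the level with Noggin was 0.54-fold that of mock, and a dimmer Pdk1 probe gave a smaller difference of -0.22.

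Slc2a1 was just past the 1.5-fold limit, with 0.65, and Ldhb, with -0.57, and Vegfa, with 0.56, were just short of it. When the background of the array files was corrected, 7 members were past the limit, these 2 and P4ha1 (0.66) with the other 4, and at a 2-fold limit Egln3 alone was. The share of all probes was not counted in either setting, so these counts cannot be set beside it. The medians of Noggin minus mock were -0.04 and 0 at day 0 for the glycolytic and the hypoxia-response genes, -0.04 and -0.065 at day 2, and 0.10 and 0.21 at day 4, against 0 over all tested probes on each day. At day 2, 9 of 10 hypoxia-response genes were below 0 by at most 0.23, and at day 4, 7 of 10 were above 0. The glycolytic median of day 4 was -0.015 with median scaling, so that its sign did not hold.

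**Figure D4:**
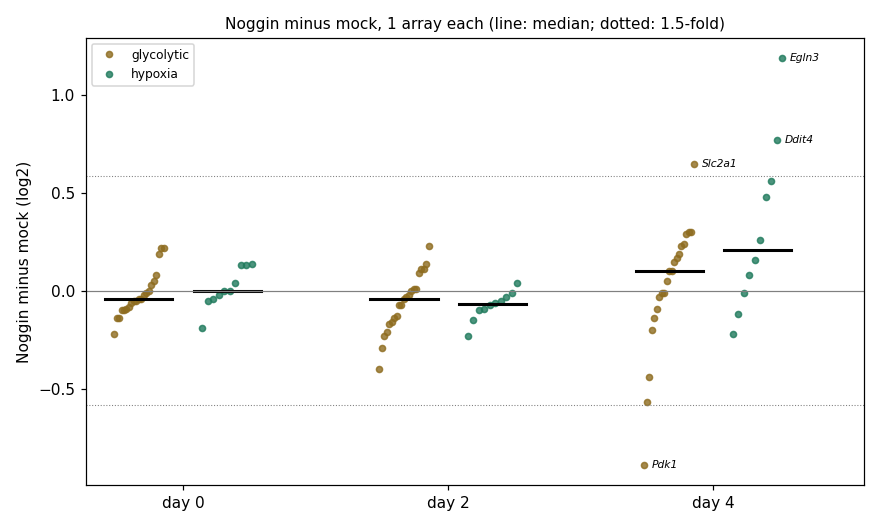
Log2 difference of the Noggin and the mock array of the same day for each tested member gene at day 0, 2 and 4, with 1 array an arm, a bar at the median of each list and dotted lines at 1.5-fold. Points at day 0 and day 2 lie inside the lines, and Egln3, Ddit4, Slc2a1 and Pdk1 lie outside them at day 4.

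Lists of related genes from textbook pathways show what lay around the members. Each gene was read by its brightest tested probe. Among 11 genes of the HIF core machinery, 2 rose and 2 fell to day 2, beside 14.3% and 13.3% of all tested probes, and 2 rose and 0 fell from day 2 to day 4, beside 12.5% and 13.1%. At day 4 against day 0, 4 were higher and 0 were lower, beside 19.5% and 19.1%. Hif3a, an alpha subunit with forms that restrain the others, was higher by 1.255 (SE 0.11, limma adjusted p 0.00153), with readings of 8.36 and 8.56 at day 0, then 9.13 and 9.09 at day 2, then 9.78 and 9.65 at day 4. Arnt, the partner subunit, was higher by 0.62 by its brightest probe. Every other tested Arnt probe was lower, with -0.845 (limma adjusted p 0.0184), -0.35 (limma adjusted p 0.042) and -0.195 (limma adjusted p 0.137). The probe with -0.35 passed the filter through the day 0 arrays alone. The direction of Arnt is thus unsettled, although it stands among the rises counted above. Of 24 other known hypoxia targets, 9 fell and 2 rose to day 2, beside 13.3% and 14.3% of all tested probes. From day 2 to day 4, 2 fell and 9 rose, beside 13.1% and 12.5%, and at day 4 against day 0, 7 were lower and 8 higher, beside 19.1% and 19.5%. The falls included Lox, a collagen cross-linker (-1.995), and Kdm3a, a histone demethylase (-1.335). Lox is also abundant in fibroblasts, and its probe passed the filter through the day 0 arrays alone. The rises included Flt1, a receptor of Vegfa (2.85), and Cxcr4, a chemokine receptor (2.255). Mif, a cytokine, went against them, with 1.15 to day 2 and -0.41 after it.

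Enzymes that take pyruvate onward did not move as one. Of 5 tested genes of pyruvate entry into the mitochondria, Pdha1 and Pdhb, subunits of pyruvate dehydrogenase, fell to day 2 (-0.68 and -0.61) and were below day 0 at day 4 (-0.60 and -0.705). Pdk4, another kinase of that enzyme, was also below day 0 at day 4 (-0.37), and Dld, a subunit shared with other complexes, was 0.62 above it. Of 14 citric acid cycle genes, 5 rose and 0 fell to day 2, beside 14.3% and 13.3% of all tested probes, among them Mdh2 by 0.605 and Fh1 by 0.39, and from day 2 to day 4 only Cs, citrate synthase, passed, with -0.625. At day 4 against day 0, 4 were higher and 1, Cs, was lower, beside 19.5% and 19.1%. Of 4 tested further isozymes of the chain, Pfkfb2 alone passed, with -0.445 to day 2 and 0.355 after it. Of 4 pentose phosphate genes, 0 passed between day 0 and day 2, and at day 4 Pgls was 0.785 above day 0 and Rpia was below it (-0.505). Beside these short lists, 14.3% of all tested probes rose and 13.3% fell to day 2. From day 2 to day 4, 12.5% rose and 13.1% fell.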

How the data were processed

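Total RNA was copied into biotin-labelled cRNA and read on Illumina mouse bead arrays through streptavidin-Cy3, a single colour, per the labels. The authors deposited 1 linear intensity per probe and array, neither background-subtracted nor scaled. They also deposited a table of log2 values, which equalled the log2 of the quantile-normalised intensities within 0.012, uncentred, so dim probes keep their background and understate changes. The scanner software is not given in the sources used here. That log2 table was analysed here. Of 27495 probes, 19420 carried 1 gene symbol, 6 several and 8069 none, from GEO's platform annotation.

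limma 3.58.1 (R 4.3.3) was fitted to all 6 arrays with day and arm as terms, which left 2 residual degrees of freedom. Filter, threshold and call rule are given with the results. A gene was summarised by its brightest probe on average. Members called in any comparison or past 1.5-fold within a day were given on every array. A few genes were named from each related list, and these were not always the ones with the largest changes. Alternatives were normexp background correction (offset 50) with quantile normalisation of the intensities, median scaling, no filter, a 75th percentile filter, no second term, other probe and fold rules, and each array left out. The fit was tested on simulated data. The members and the lists were chosen with earlier results of these data known. Each precision is limited by the number of arrays.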

Additional observations from a re-analysis of the deposited data

Results flagged for a closer look

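The glucose transporter Slc2a3 and the phosphofructokinase isozyme Pfkl were the members whose arms differed by at least 1.2-fold in opposite directions on 2 days. Slc2a3 was lower with Noggin at day 2 by 0.29 (log2 difference -0.29) and higher at day 4 (0.30). Pfkl was lower with Noggin at day 2 (-0.40) and higher at day 4 (0.29). With 1 array for each arm and day, the difference between the days was not tested. The 6 arrays hold no group of 4 or more, so no group could be searched for a stray array.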

How the results depend on the processing

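The number of member probes called was 13, 16 and 15 for day 2 against day 0, day 4 against day 0 and day 4 against day 2. It ranged from 10 to 15, 13 to 17 and 11 to 17 over the other normalisations, filters and models, and from 0 to 21, 0 to 18 and 0 to 24 when 1 array was left out. Those fits leave the day concerned with 1 array, which is assumed to vary like the others. The counts over the other normalisations, filters and models came from 24 to 47 tested member probes. Beside them, 15.8% to 35.7%, 22.3% to 48.8% and 14.8% to 33.8% of all tested probes were called. The counts alone are therefore no measure of how steady the members were. None of the called changes turned direction. With median scaling 9 calls of named members were lost, with background correction 2 and without a filter 1. With the 75th percentile filter 1 was lost, but only 10 of 13, 13 of 16 and 12 of 15 called probes were still tested. The calls on the other probes could not be checked under that filter. Not all of the 9 calls lost with median scaling are marked where the genes are described. Median scaling called 11 member probes from day 2 to day 4, beside 18.3% of all tested probes. Members past 1.5-fold at day 4 were 4, beside 5.65% of all probes. They were 7 with background correction and 1 at 2-fold, settings for which the share of all probes was not counted. With the 75th percentile filter, which tested fewer genes, the glycolytic median was -0.29 for day 2 against day 0 and -0.04 for day 4 against day 2, and the hypoxia median was 0.92 for day 4 against day 2 and 0.56 for Noggin against mock at day 4. Median scaling gave a glycolytic median of -0.015 for Noggin against mock at day 4, and the cause was not tested. Leaving out 1 array, the glycolytic medians ranged from -0.1 to 0.065 (day 2 against day 0), 0.025 to 0.1725 (day 4 against day 0) and -0.0075 to 0.165 (day 4 against day 2), and the hypoxia medians from -0.34 to -0.14875, -0.0325 to 0.21875 and 0.185 to 0.62. The pairing of the arms by day is already a term of the model. No further pairing was possible, because each arm and day has 1 array and replicate numbers pair nothing. Signals near the array median limit Eno2, P4ha2, Egln1, Adm, P4ha1, Higd1a, Eno3, Pfkfb4 and Pfkfb3, which averaged below 8 on the log2 scale.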
